A study of Rattus norvegicus with 2 samples.

Results

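Heat shock proteins and their J-domain co-chaperones were examined in the rat retina, as every gene whose symbol begins with Hspa, Hspb, Hspd, Hspe, Hsph, Dnaja, Dnajb, Dnajc or Bag and a digit, or with Hsp90a or Hsp90b. The rule took 79 of the 32662 genes in the expression data, and these 79 entries carry 77 distinct symbols because *Hspa8* and *Hspa1a* each have a pair of entries. By family there were 15 Hspa, 1 Hsph, 3 Hsp90, 8 Hspb, 1 Hspd, 4 Dnaja, 13 Dnajb, 28 Dnajc and 6 Bag genes, and no entry was named *Hspe1*. The study sequenced rRNA-depleted RNA from 2 retinas of Long-Evans rats aged 2 months, and its methods describe female animals. The CTRL retina underwent a sham procedure, and the IR12 retina underwent ischemia followed by reperfusion and was collected 12 hours after blood flow returned. Each condition has 1 library, so no difference has a replicate check, and whether both retinas came from the same animal is not given in the sources used here. The kit is called a stranded total RNA kit in one description and a stranded mRNA kit in another, both with rRNA removal.

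Chaperones bind unfolded stretches of other proteins and keep them from aggregating while they fold. HSP70 proteins (Hspa genes) do this in cycles driven by ATP, J-domain proteins (Dnaj genes) bring them substrates and speed up ATP hydrolysis, and Bag and Hsph proteins help release the nucleotide. HSP90 proteins finish the folding of kinases and receptors, while small heat shock proteins (Hspb genes) hold unfolded proteins without using ATP. In unfolded-protein stress the transcription factor HSF1 switches on cytosolic chaperones, a separate response that starts at the endoplasmic reticulum (ER) membrane switches on ER chaperones. In the retina, photoreceptors make large amounts of membrane protein in the ER.

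The 5 most abundant members stood at higher levels in IR12 than in CTRL on all 4 scalings of the libraries, 4 of them by less than 2-fold as deposited. Levels are given as FPKM, read fragments per kilobase of transcript and per amount of sequencing, so that genes can be compared per length. Of the 79 genes, 65 reached an FPKM of 1 in at least 1 library and were compared. Among these, *Hspb1*, *Bag3* and *Dnajb13* reached it in IR12 alone, and 0 reached it in CTRL alone. A gene was called when log2 of (FPKM + 1) differed by at least 1 between the libraries, and all counts past a 2-fold or 1.5-fold limit refer to FPKM + 1 unless stated. By this limit 2 of the 65 members (3.08%) were at least 2-fold higher in IR12, against 6.56% of all 13599 genes that reached the same FPKM. None of the 65 members was at least 2-fold lower, against 6.12% of all genes. By the ratio of FPKM itself, 4 members were at least 2-fold higher (6.15%, against 8.88% of all genes), with *Bag2* and *Bag3* added, and 0 were at least 2-fold lower (against 9.15%). As deposited, the share past the upper limit was thus below that of the whole table, but it rests on 2 or 4 members. On the TPM scale, described below, it was above, with 25 members (38.5%, against 20.7% of all genes). At milder limits the members differed from the whole table as deposited. At least 1.5-fold higher were 15 members (23.1%, against 14.8% of all genes), and 1 member was at least 1.5-fold lower (1.54%, against 13.7%). The log2 ratio was above 0 in 51 members (78.5%, against 51.8%). Of the 62 that reached an FPKM of 1 in CTRL it was above 0 in 48 (77.4%, against 49.4% of all such genes).

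The milder limit was passed more often among abundant members. Of the 19 members with a mean FPKM of at least 50, 9 were at least 1.5-fold higher in IR12 (47.4%), against 14.8% of the 2275 genes of this abundance. None of the 19 was at least 1.5-fold lower, against 13.3%. The mean includes IR12, so *Hsph1*, *Dnajb11* and *Dnajc3* entered through their IR12 level. Of the 18 members with an FPKM of at least 50 in CTRL itself, 7 were at least 1.5-fold higher (38.9%, against 10.9% of 2225 genes) and 0 were at least 1.5-fold lower (against 16.6%). The median log2 ratio of the 65 members was 0.27, and that of all genes was 0.02. Summed over all 79 members, FPKM was 4155 in CTRL against 6081 in IR12, a ratio of 1.46. *Hspa8*, *Hsp90ab1*, *Hsp90b1*, *Hspa5* and *Hspa4l* made up 43.7% of this sum in CTRL and 52.6% in IR12. In bulk tissue such as this, a change in the number of cells of a type and a change in RNA per cell cannot be told apart.

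**Figure D1:**
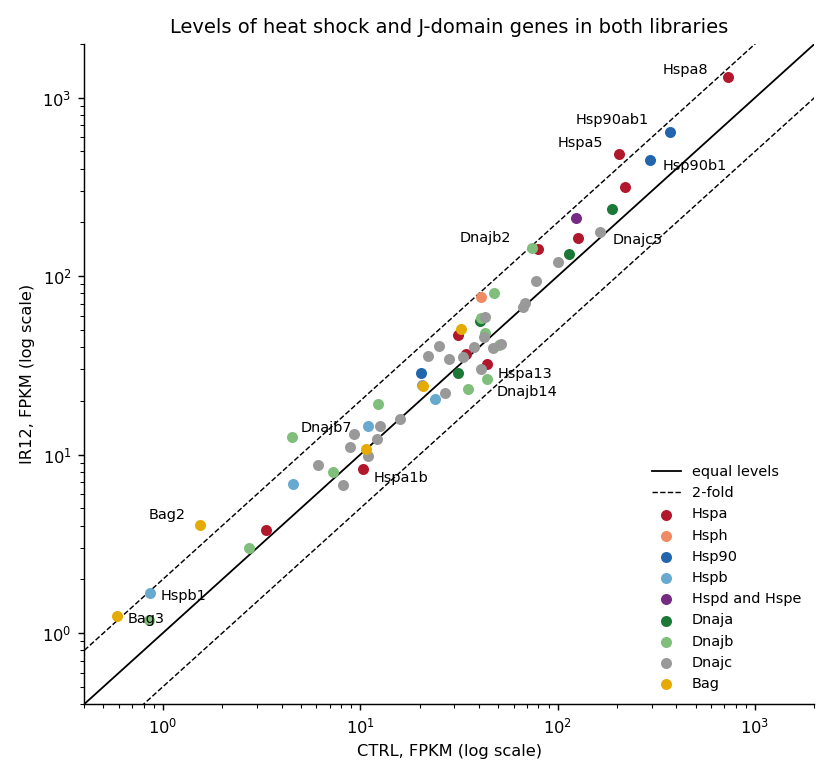
Levels of the 65 members that reached an FPKM of 1, with CTRL on the x axis and IR12 on the y axis (FPKM, both log scales), 1 point per gene coloured by family; the solid line marks equal levels and the dashed lines 2-fold differences of FPKM itself. Most points lie between the solid and the upper dashed line, and Hspa5, Dnajb7, Bag2 and Bag3 lie above the latter.

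The directions depend on how the libraries are put on a common scale. Small non-coding RNAs took 68.1% of the summed FPKM of the CTRL library and 46.3% of that of IR12. When both columns were rescaled to the same sum (TPM scale), the median log2 ratio of genes with an FPKM of at least 1 in both libraries moved up by 0.58. On that scale 25 members (38.5%, against 20.7% of all genes) were at least 2-fold higher and 0 lower, beside 2817 higher and 436 lower among all genes, compared with 892 and 832 as deposited. A common sum without the small RNAs moved the same median by -0.09, and left 44 members above 0 and 21 below. Set against the all-gene median of its own scale, the members' median was 0.25 higher as deposited, 0.27 on the TPM scale and 0.24 without small RNAs.

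**Figure D2:**
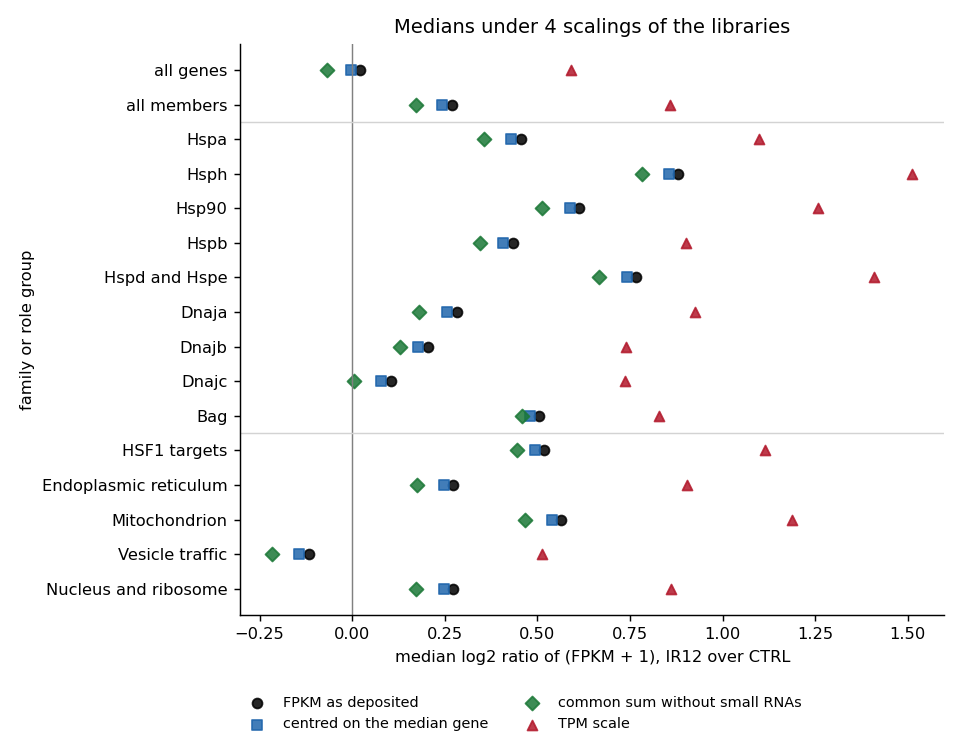
Median log2 ratio of (FPKM + 1), IR12 over CTRL (x axis), for all genes, all members, each family and each role group (y axis) under 4 scalings, 1 symbol per scaling. The TPM scale shifts every median to the right, that of all genes included, and the vesicle traffic group is below 0 on the other 3 scalings and above 0 on the TPM scale.

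Genes that HSF1 is known to switch on were higher as a group. The inducible HSP70 gene *Hspa1b* was below the median of all genes, also on the TPM scale. Of 15 entries on this list 12 reached an FPKM of 1, with a median log2 ratio of 0.52 against 0.02 for all genes, and 11 of the 12 were above 0 (against 51.8% of all genes). *Hspb1* and *Bag3* reached that FPKM in IR12 alone, and without them the median was also 0.52, with 9 of 10 above 0 (against 49.4% of the genes that reached it in CTRL). At least 1.5-fold higher by FPKM + 1 were *Hsph1*, *Hspa8*, *Hsp90ab1* and *Hspd1*, against 14.8% of all genes past that limit, and by FPKM itself also *Bag3* and *Hspb1*, against 17.3%. *Hspa8*, the constitutive cytosolic HSP70, was the most abundant member, with an FPKM of 729 in CTRL against 1303 in IR12 (log2 ratio 0.84). *Hsp90ab1*, the constitutive cytosolic HSP90, had 370 in CTRL against 646 in IR12 (0.80). *Hsph1*, a nucleotide exchange factor of HSP70, had 40.9 and 76.2 (0.88). Ranked from the most negative to the most positive log2 ratio, these 3 genes lay above at least 90% of all compared genes, although each stayed under the 2-fold limit.

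Apart from these 3 genes and *Hspd1*, log2 ratios on the list were at most 0.53, a scale that understates differences of scarce genes. *Hspa4l*, a relative of *Hsph1*, had an FPKM of 219 in CTRL against 317 in IR12 (0.53). *Dnajb1*, the J-domain partner that is induced together with HSP70, had 40.7 and 58.5 (0.51). *Hsp90aa1*, the inducible cytosolic HSP90, had 20.3 and 28.6 (0.47). Per length, *Hsp90aa1* thus stood far below its constitutive relative *Hsp90ab1* in both libraries. *Dnaja1*, a cytosolic J-domain protein that works with *Hspa8*, had 189 and 238 (0.33). *Hspb8* and *Bag3* encode partners that deliver damaged proteins to autophagy. *Hspb8* had 4.59 and 6.85 (0.49), and *Bag3* had 0.584 and 1.25 (0.51). *Hspb1*, the widely induced small heat shock protein, had 0.863 and 1.69 (0.53). With a pseudocount of 0.1 the log2 ratio was 0.98 for *Bag3* and 0.89 for *Hspb1*, beside 0.90 for *Hsph1*.

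*Hspa1b*, a stress-inducible HSP70, had an FPKM of 10.3 in CTRL against 8.26 in IR12, a log2 ratio of -0.29. On the TPM scale it had 0.29, where the median of all genes was 0.59. Both *Hspa1a* entries were near or at the bottom of the range. The one on chromosome 20 was listed at 0 in both libraries, and the one on chromosome 11 was listed at 0 in CTRL and at 0.0507 in IR12. *Hspa1a* and *Hspa1b* are near-identical copies, and *Hspa1b* is 1 of 30 entries listed with the same locus (rn6, chr20:4638663-5008262), so these values are uncertain.

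Promoters of the members were searched for the heat shock element, since HSF1 trimers bind inverted repeats of the unit GAA. RefSeq promoters of the GRCr8 assembly were used, from 250 bases before to 50 bases after the gene start. They were matched for 61 members, 52 of which reached an FPKM of 1. *Hsp90aa1* and *Hspa1b* were not among the 61, so their promoters were not searched. A pair of units, GAANNTTC or TTCNNGAA (each its own reverse complement), was present in 28.8% of the 52, against 11.0% of 9275 promoters of genes with an FPKM of at least 1 and 15.9% of all 33469. A run of 3 alternating units, read on both strands, was present in *Hsph1*, *Hspa8*, *Hspd1* and *Dnaja1*, or 7.69% of the 52, against 0.474% and 0.798%. The 3-unit run contains the 2-unit motif. These 4 genes had log2 ratios from 0.33 to 0.88 with a median of 0.80. The 48 members without the run ranged from -0.72 to 1.30, with a median of 0.26. The 15 members with the 2-unit motif ranged from -0.43 to 0.88, with a median of 0.51. The 37 without it ranged from -0.72 to 1.30, with a median of 0.24. *Hsp90ab1*, also on the list of HSF1 genes, had 0.80 and no match of either motif. *Hspa4l*, *Dnajb1*, *Hspb1*, *Hspb8* and *Bag3*, on the same list, held the 2-unit motif but no 3-unit run. A match describes the letters only, and occupancy by HSF1 was not measured. The promoter of *Hspa8* (GRCr8, chr8:50080264-50080563, plus strand) is shown whole because it is the most abundant member and holds 2 separate runs, which begin 213 and 55 bases before the start site. The stretches of *Hsph1* (chr12:10427317-10427359, plus strand), *Hspd1* (chr9:64084247-64084287, minus strand) and *Dnaja1* (chr5:60638398-60638440, plus strand) show the other runs, 5' to 3' along the gene, with the runs in capitals. The pair of runs in *Hspd1* overlap.

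Hspa8: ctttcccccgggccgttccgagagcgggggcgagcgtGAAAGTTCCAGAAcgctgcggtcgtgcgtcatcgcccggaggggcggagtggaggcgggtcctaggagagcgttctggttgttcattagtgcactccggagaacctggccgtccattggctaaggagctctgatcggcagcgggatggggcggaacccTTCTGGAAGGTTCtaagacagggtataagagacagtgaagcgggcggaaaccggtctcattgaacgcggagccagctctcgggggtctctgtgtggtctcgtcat
Hsph1: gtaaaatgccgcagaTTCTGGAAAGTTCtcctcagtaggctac
Hspd1: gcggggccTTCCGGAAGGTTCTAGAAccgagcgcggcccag
Dnaja1: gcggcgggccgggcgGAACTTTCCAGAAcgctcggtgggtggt

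In a group of 8 ER genes, the main HSP70 and 3 of its partners were higher in IR12. The other 4 were near or below the median of all genes, also on the TPM scale. *Hspa5*, the ER HSP70 also known as BiP (rn6, chr3:13838304-13842762), was 1 of the 2 called members, with an FPKM of 204 in CTRL against 483 in IR12, a 2.37-fold difference (log2 ratio 1.24). It remained past the 2-fold limit on all 4 scalings, between 1.14 and 1.89. *Hsp90b1*, the ER HSP90, was the most abundant gene of the group in CTRL, where it had 294, and was below BiP in IR12, with 450 (0.61). *Dnajb11*, a J-domain partner of BiP, had 47.6 and 80.8 (0.75). *Dnajc3*, another partner that also restrains the kinase PERK, had 42.8 and 59.0 (0.46).

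The other 4 ER genes of the group ranged from -0.44 to 0.09. *Dnajb12* and *Dnajb14*, which lie in the ER membrane, were left out of this group and had 0.59 and -0.72. *Dnajb9*, which helps to keep the stress sensor IRE1 inactive, had an FPKM of 50.3 in CTRL against 41.2 in IR12 (-0.28, but 0.35 on the TPM scale). *Hspa13*, a microsomal HSP70 relative, had 43.9 and 32.2 (-0.44, but 0.19 on the TPM scale). *Dnajc10*, a disulfide reductase, had 66.6 and 67.3 (0.01, but -0.09 without small RNAs). *Dnajc1* had 37.6 and 40.1 (0.09, but -0.01 without small RNAs). Over the 8 ER genes the median log2 ratio was 0.27, and 6 were above 0 as deposited (against 51.8% of all genes), 8 on the TPM scale (against 84.3%) and 4 without small RNAs (against 44.6%).

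An ER stress element, CCAAT followed by 9 free bases and CCACG on either strand, was present in the promoters of *Hspa5*, *Hsp90b1* and *Dnajc3*. This was 5.77% of the 52 members with a promoter and an FPKM of at least 1, against 0.151% of the promoters of genes with that FPKM and 0.0657% of all promoters. The 3 genes had log2 ratios of 1.24, 0.61 and 0.46. *Dnajb11*, with 0.75, had no match in this window. The whole window of *Hspa5* (GRCr8, chr3:38452766-38453065, plus strand) is shown because it is the called member, together with the matching stretches of *Hsp90b1* (chr7:23012332-23012484, minus strand) and *Dnajc3* (chr15:102432519-102432567, plus strand). Capitals mark the matches, which begin 43 bases before the start site in *Hspa5*, 176 and 72 in *Hsp90b1* and 133 in *Dnajc3*. The nearer match of *Hsp90b1* is on the opposite strand.

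Hspa5: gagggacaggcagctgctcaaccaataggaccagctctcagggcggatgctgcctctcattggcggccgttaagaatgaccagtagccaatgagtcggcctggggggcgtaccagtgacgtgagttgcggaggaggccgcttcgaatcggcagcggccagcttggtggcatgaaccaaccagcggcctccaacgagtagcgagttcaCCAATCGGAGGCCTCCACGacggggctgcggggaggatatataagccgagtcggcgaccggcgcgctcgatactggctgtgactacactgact
Hsp90b1: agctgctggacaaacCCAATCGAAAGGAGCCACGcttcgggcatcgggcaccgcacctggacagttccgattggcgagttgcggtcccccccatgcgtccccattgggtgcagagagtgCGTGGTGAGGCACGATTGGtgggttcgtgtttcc
Dnajc3: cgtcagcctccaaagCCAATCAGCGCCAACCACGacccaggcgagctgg

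Mitochondrial chaperones were higher as a group, and the median log2 ratio of the 6 genes was 0.56. *Hspa9*, the HSP70 of the matrix, had an FPKM of 79.1 in CTRL against 142 in IR12 (0.83). *Hspd1*, the matrix chaperonin HSP60, had 124 and 212 (0.77). *Dnajc11*, a J-domain protein of the complex that shapes the inner membrane folds, had 22.0 and 35.6 (0.67). These 3 genes were at least 1.5-fold higher, against 14.8% of all genes. *Dnaja3*, the matrix J-domain protein, had 40.6 and 56.1 (0.46). *Dnajc15* and *Dnajc19* belong to the motor that pulls precursor proteins into the matrix, and they differed in direction. *Dnajc15* had 28.3 and 34.4 (0.27), and *Dnajc19* had 10.9 and 9.79 (-0.14, but 0.44 on the TPM scale).

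J-domain proteins of vesicle traffic had the lowest median of the role groups, -0.12 over 4 genes, and 0.51 on the TPM scale, where its difference from the median of all genes was -0.08. *Dnajc5*, the cysteine string protein that protects synaptic vesicle fusion, was the most abundant Dnajc gene, with an FPKM of 164 in CTRL against 178 in IR12 (0.11). *Dnajc6*, the neuronal auxilin that strips clathrin coats, had 51.9 and 41.6 (-0.31, but 0.32 on the TPM scale). *Dnajc27*, which joins a Rab-like GTPase to a J domain, had the lowest ratio of the Dnajc family, with 41.1 and 30.2 (-0.43, but 0.20 on the TPM scale). *Dnajc13*, an endosomal protein, had 33.3 and 35.1 (0.08, but -0.02 without small RNAs). The remaining genes of the group, *Dnajc5b* and *Dnajc5g*, were under the limit.

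The 5 genes of the nucleus and ribosome were above 0 on all 4 scalings, with a median of 0.27 as deposited. Of all genes, 51.8% were above 0 as deposited and 84.3% on the TPM scale. *Dnajc2*, the ribosome-bound factor that helps HSP70 meet nascent chains, had the highest ratio of the Dnajc family, with an FPKM of 25.0 in CTRL against 40.7 in IR12 (0.68). *Dnajc8*, a component of splicing complexes, had 77.9 and 94.4 (0.27). *Dnajc21*, which takes part in ribosome assembly, had 20.6 and 24.6 (0.24). The lowest ratio was that of *Dnajc9*, a histone chaperone, with 42.6 and 45.9 (0.10, and 0.01 without small RNAs). *Dnajc17* had 8.89 and 11.0 (0.28).

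**Figure D3:**
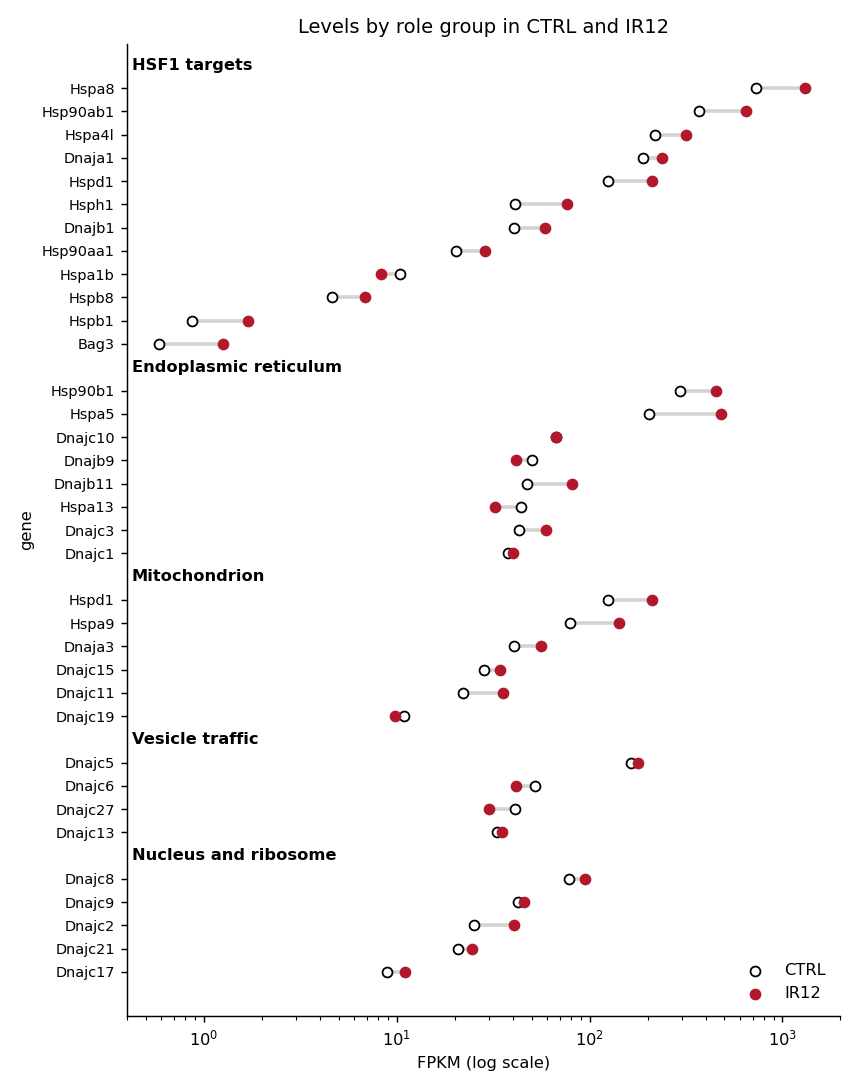
FPKM (x axis, log scale) in CTRL (open circles) and IR12 (filled circles) for each gene of the 5 role groups that reached an FPKM of 1 (y axis, ordered by the CTRL level within a group). IR12 lies to the right for most genes, and to the left for Hspa1b, Dnajb9, Hspa13, Dnajc19, Dnajc6 and Dnajc27. All 6 lie to the right on the TPM scale, as do 84.3% of all genes.

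By family, the HSP70 and HSP90 genes had higher medians than the J-domain genes. Summed FPKM of the Hspa family was 1481 in CTRL against 2538 in IR12, and the median log2 ratio of its 10 compared genes was 0.46. The 3 Hsp90 genes summed to 684 and 1124, with a median of 0.61. The 4 compared Hspb genes had a median of 0.43 (0.38 without *Hspb1*), and the 5 compared Bag genes 0.51 (0.43 without *Bag3*). The J-domain families followed with 0.28 for 4 Dnaja, 0.20 for 12 Dnajb (0.17 without *Dnajb13*) and 0.10 for 25 Dnajc genes. The place of Hspb and Bag above them depends on the setting. On the TPM scale Dnaja had 0.92, against 0.90 for Hspb and 0.83 for Bag. With a minimum FPKM of 5, Bag had 0.21, against 0.28 for Dnaja and 0.34 for Dnajb. The Hsph and Hspd families hold a single gene each, with the values given above. The Dnajc sum was 981 in CTRL against 1072 in IR12. All 9 family medians were above 0 on the 4 scalings, and that of Dnajc was 0.01 without small RNAs, where 13 of its genes were above 0 and 12 below.

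**Figure D4:**
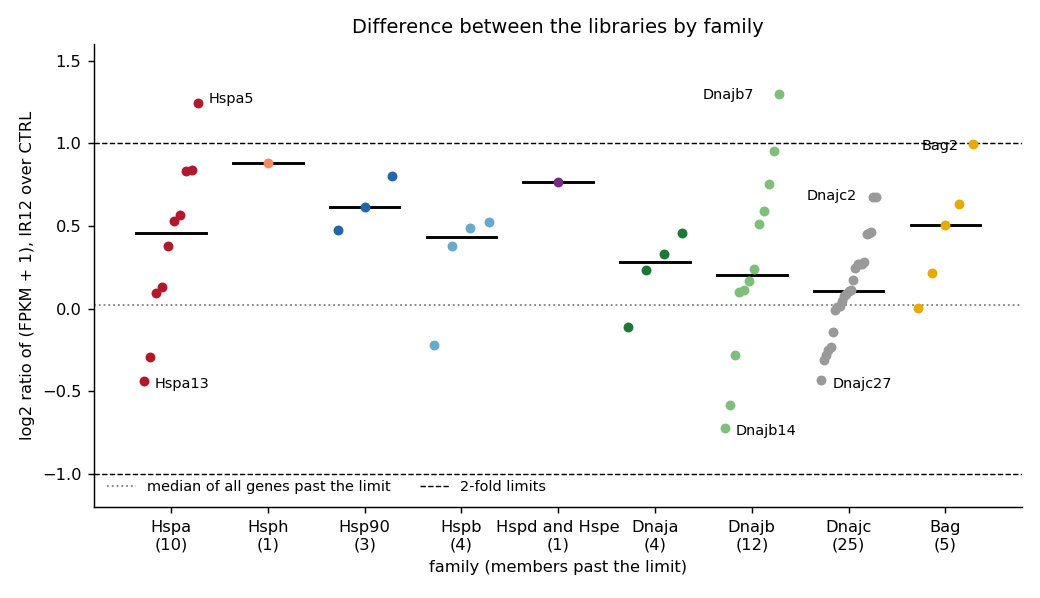
Log2 ratio of (FPKM + 1), IR12 over CTRL (y axis), of each of the 65 compared members by family (x axis, number of genes in brackets), with the family median as a black bar, the median of all genes as a dotted line and the 2-fold limits as dashed lines. The Dnajb family spans the widest range, from -0.72 for Dnajb14 to 1.30 for Dnajb7. On the TPM scale, where 84.3% of all genes are above 0, Dnajb14 is the single member below 0.

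The Dnajb family held both ends of the range. *Dnajb7*, the other called member, had an FPKM of 4.49 in CTRL against 12.5 in IR12, a 2.78-fold difference (log2 ratio 1.30). Its listed locus (rn6, chr7:122636171-122688819) is shared with *Xpnpep3*, a mitochondrial aminopeptidase, which had 7.85 and 12.7. The libraries were stranded, but whether strand was used in the counting is not given in the sources used here, so reads of these overlapping genes cannot be told apart, and *Dnajb7* is uncertain. *Dnajb2*, a neuronal J-domain protein that hands clients to the proteasome, was the most abundant gene of the family, with 74.1 in CTRL against 144 in IR12 (0.95, just under the limit). *Dnajb14*, a J-domain protein anchored in the ER membrane, had 44.1 and 26.4 (-0.72, and -0.09 on the TPM scale), the lowest ratio of all compared members. It shares its listed locus with the histone gene *H2afz*, which had 54.3 and 56.0. *Dnajb12*, a close relative of *Dnajb14* in the same membrane, had 12.4 and 19.1 (0.59). *Dnajb4*, a cytosolic relative of *Dnajb1*, had 35.2 and 23.2 (-0.58, but 0.05 on the TPM scale). Related genes of this family thus stood on opposite sides of 0 as deposited. On the TPM scale *Dnajb14* alone was below 0, but 84.3% of all genes were above 0 there. *Dnajb4* and *Dnajb14* lay below the median of all genes on that scale (0.59), and *Dnajb12* (1.19) lay above it.

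Among the other families, *Bag2*, an inhibitor of the ubiquitin ligase CHIP, lay just outside the limit, with an FPKM of 1.53 in CTRL against 4.04 in IR12 (log2 ratio 0.99). Its ratio was 1.34 with a pseudocount of 0.1 and 1.40 on the TPM scale, both past the limit. *Bag1*, the most abundant Bag gene, had 32.4 and 50.9 (0.64), whereas *Bag4* had 10.8 in both libraries (0.00, and -0.09 without small RNAs). The largest Dnaja ratio was that of *Dnaja3*, and the smallest that of *Dnaja4*, with 31.2 and 28.8 (-0.11, but 0.51 on the TPM scale). The highest level per length in the Hspb family was that of *Hspb11*, a protein of ciliary transport named for a limited resemblance to small heat shock proteins, with 23.9 and 20.4 (-0.22, but 0.40 on the TPM scale). *Hspb6* had 10.9 and 14.4 (0.38).

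The 14 members under the limit comprised 7 with values above 0 in both libraries, 2 listed at 0 in 1 library and 5 listed at 0 in both. *Dnajc5b* had an FPKM of 0.335 in CTRL and was listed at 0 in IR12, and the *Hspa1a* entry on chromosome 11 has been given above. *Hspb9*, *Bag5*, *Dnajc5g*, *Dnajb8* and the other *Hspa1a* entry were listed at 0 in both libraries. The highest value in the group was 0.733, for *Hspa12b* in IR12, an endothelial HSP70 relative with 0.298 in CTRL. *Hspb3* had 0.127 and 0.669, *Hspa1l* 0.147 and 0.483, and *Hspb2* 0.375 and 0.110. The other *Hspa8* entry, on chromosome 5, had 0.0686 and 0.0803, and reads of *Hspa8* and its copies may be split between entries. In all, 23 of the 79 members share their listed locus with another entry.

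Depth sets how finely these ratios can be read. From the steps between low values, 1 read at an effective length of 1 kb was estimated to be worth an FPKM of 0.0649 in CTRL against 0.0380 in IR12. A gene with an FPKM of 10 at that length would have about 154 and 263 reads, for which counting error alone gives a 95% half-width of 0.287 on the log2 ratio. Ratios of short or scarce genes, such as *Bag3* and *Hspb1*, are wider than this, and variation between animals is not covered.

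Partners of the chaperones outside the family rule were mostly higher as well. All 8 subunits of the cytosolic chaperonin TRiC, which folds actin and tubulin, were above 0 on the 4 scalings, against 51.8% of all genes as deposited. Their median was 0.76, and 7 of them were at least 1.5-fold higher, against 14.8% of all genes. Summed FPKM of TRiC was 1037 in CTRL against 1763 in IR12. Its most abundant subunit, *Cct5*, had 175 and 304 (0.80). The 7 cofactors of HSP70 had a median of 0.63, with 4 at least 1.5-fold higher. The single one below 0 was *Sil1*, an ER exchange factor of BiP, with an FPKM of 14.1 in CTRL, 1.40-fold that of IR12 (-0.45, but above 0 on the TPM scale). *St13*, which stabilises the bound state of HSP70, was the most abundant of them, with 98.4 and 153 (0.63). The 17 co-chaperones of HSP90 had a median of 0.39, with 14 above 0. Their most abundant gene was *Ptges3*, the p23 co-chaperone, with 132 and 186 (0.50). A single gene of the 17 was called, at least 2-fold lower, against 6.12% of all genes. It was *Cacybp*, which links an E3 ligase to its targets, with 34.1 in CTRL against 6.81 in IR12 (-2.17). On the TPM scale 8 of the 17 were at least 2-fold higher (against 20.7% of all genes) and 1 lower.

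The 8 other ER folding genes, a list that leaves out *Sil1*, were above 0 on the 4 scalings, against 51.8% of all genes as deposited. Their median was 0.66, and 2 were at least 2-fold higher, against 6.56% of all genes. *Sdf2l1*, a BiP cofactor, had an FPKM of 3.09 in CTRL against 11.2 in IR12 (1.57). *Manf*, a secreted ER stress protein, had 58.3 and 130 (1.14). *Calr*, the calcium-binding lectin chaperone calreticulin, was the most abundant, with 293 and 508 (0.79). The 5 further genes of mitochondrial protein quality control had a median of 0.56. All were above 0 on the 4 scalings, against 51.8% of all genes as deposited. The most abundant of these, *Trap1*, the mitochondrial HSP90, had 22.9 and 34.2 (0.56).

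None of the 4 compared genes of the heat shock factor list was at least 1.5-fold higher (against 14.8% of all genes) or lower (against 13.7%). With 4 genes, these counts are too small to set the list apart from those shares. *Hsf1* had an FPKM of 10.9 in CTRL against 14.3 in IR12 (0.36), and *Hsf2* had 29.6 and 28.2 (-0.07). *Hsbp1*, a small protein that binds HSF1 trimers, was the most abundant gene of this list, with 160 and 168 (0.07). The list had a median of 0.17, with 3 above 0 as deposited (against 51.8% of all genes). On the TPM scale 4 were above 0 (against 84.3%), and 2 without small RNAs (against 44.6%). Over the 3 that reached an FPKM of 1 in CTRL the median was 0.07, and -0.03 without small RNAs.

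The alpha crystallins, small heat shock proteins whose symbols fall outside the rule, went the other way. *Cryaa* had an FPKM of 1118 in CTRL against 124 in IR12 (-3.16), and *Cryab* had 718 and 154 (-2.21). Both were at least 2-fold lower on the 4 scalings, against 6.12% of all genes as deposited. Both are major proteins of the lens, and lens markers moved with them. All 10 lens markers were at least 2-fold lower, with a median of -2.68 and a sum of 2388 in CTRL against 289 in IR12, none of them listed at 0. Their most abundant gene was *Cryba1*, with 1614 and 196. Alpha crystallins are also made in the retina, and the part of lens tissue in this difference was not tested.

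Other cell type markers were set beside the chaperones. Rod markers identified both libraries as retina, and 0 of the 8 were listed at 0. *Gnat1*, the alpha subunit of rod transducin, had an FPKM of 4027 in CTRL against 4237 in IR12. The 8 rod markers had a median log2 ratio of 0.04, which was -0.06 without small RNAs and 0.68 on the TPM scale. As deposited they ranged from -0.45 for *Nrl*, a rod transcription factor with 54.1 in CTRL against 39.4 in IR12, to 0.92 for *Sag*, the rod arrestin, with 2482 and 4703, and all 8 were above 0 on the TPM scale (against 84.3% of all genes). Of 8 Müller glia markers, 7 were at least 2-fold lower in IR12, against 6.12% of all genes. On the TPM scale 5 were, beside 436 of all 13599 genes. The 8 had a median of -1.93 and sums of 1566 and 549. *Glul*, the glutamine synthetase of these cells and their most abundant marker in CTRL, had 754 and 126, whereas the remaining marker, *Vim*, had 121 and 221 (0.86) and was the highest in IR12. Of 10 leukocyte markers, 6 were at least 2-fold higher by FPKM + 1 (against 6.56% of all genes) and 7 by FPKM itself (against 8.88%), with a median of 1.63 and sums of 21.8 and 138. Of the 6, 5 reached an FPKM of 1 in IR12 alone, and of the 4 markers that reached it in CTRL 1 was called, with a median of 0.21 over the 4. Their most abundant gene was the lysozyme gene *Lyz2*, with 9.73 and 76.9, and 1 of the 10, *S100a8*, was listed at 0 in CTRL. The part of these cell types in the chaperone values was not tested.

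The remaining marker lists differed less or were scarce. The 7 compared ganglion cell markers had a median of -0.15 (0.47 on the TPM scale) and sums of 355 and 293, led by *Nefl*, with 132 and 88.8. The 5 endothelial markers with an entry had a median of -0.02 (0.47 on the TPM scale), or -0.29 (0.22 on the TPM scale) over the 4 that reached an FPKM of 1 in CTRL, and sums of 127 and 106, led by *Kdr*, with 108 and 66.8. The called gene of this list was *Flt1*, with 12.3 and 32.3 (1.32). Pigment epithelium markers had a median of -0.02 (0.44 on the TPM scale) and sums of 79.3 and 98.4, led by *Ttr*, with 61.8 and 87.4. The called gene of this list was *Rpe65*, with 11.1 and 4.88 (-1.04), and it was not past the lower limit on the TPM scale. Skeletal muscle markers, which would reveal eye muscle, summed to 2.45 and 4.09 over 6 entries. *Mylpf*, the highest in CTRL, had 1.11 and 1.29, and *Des*, the highest in IR12, had 0.296 and 1.81 (1.12) and was called. Among them 1 entry was listed at 0 in each library. Blood markers had 2 entries and summed to 20.8 and 35.3, led by *Hbb*, with 20.4 and 35.1.

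**Figure D5:**
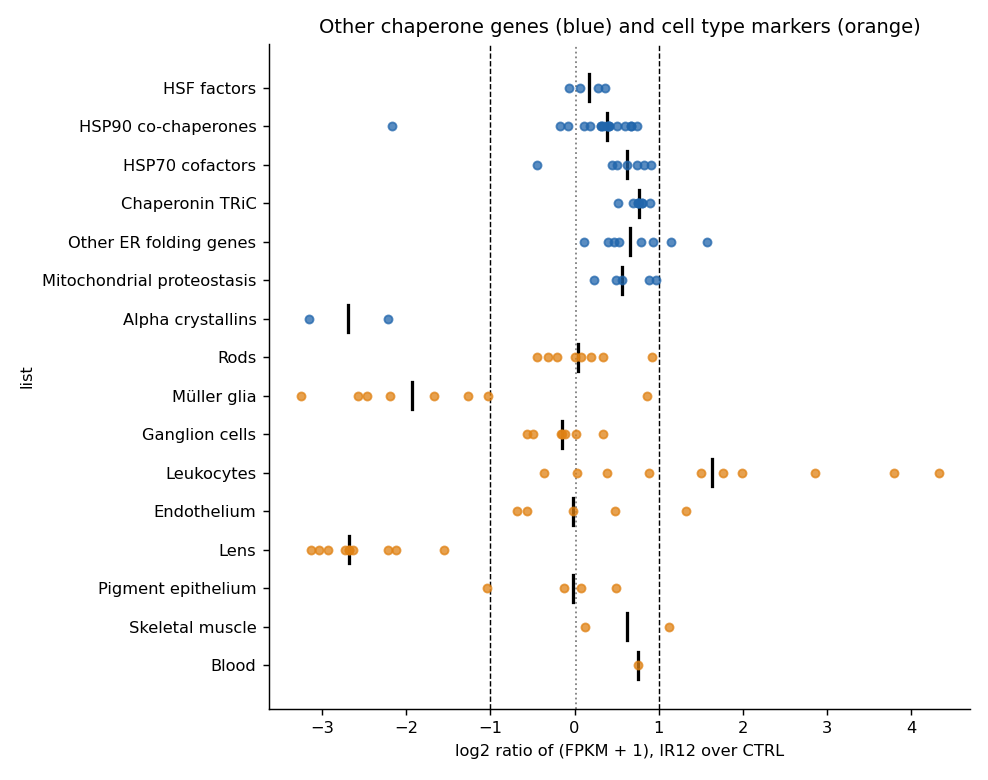
Log2 ratio of (FPKM + 1), IR12 over CTRL (x axis), of each gene with an FPKM of at least 1 in other chaperone lists (blue) and cell type marker lists (orange), 1 list per row (y axis), with list medians as black bars, the median of all genes as a dotted line and the 2-fold limits as dashed lines. TRiC and other ER folding genes lie to the right of 0, the alpha crystallins and lens markers lie far to the left, and 7 of 8 Müller glia markers are below -1; on the TPM scale these sides are the same, with 5 of the 8 Müller glia markers below -1.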

How the data were processed

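RNA of 1 CTRL and 1 IR12 retina was sequenced. For each gene the authors deposited FPKM on rn6 coordinates, and the submitters' processing notes name STAR 2.5.2b and Cuffdiff 2.2.0. The study shortened reads to the first 100 bp. Which reads enter the FPKM total, and the annotation behind the FPKM values, are not given in the sources used here. Listed starts count from 0, as the lengths of microRNA hairpins showed, and were raised by 1.

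Log2 ratios used a pseudocount of 1 and genes with an FPKM of at least 1 in at least 1 library, so they understate changes of scarce genes, while folds printed for single genes are ratios of FPKM itself and counts past a fold limit use FPKM + 1 unless stated. The members and lists were chosen with earlier results of these data known. Named were called members, members near the limit, role group members, the most abundant and extreme genes of each family, and called or most abundant genes of other lists, with *Hsf1* and *Hsf2*. Outside this rule, *Dnajb4*, *Dnajb12*, *Dnajb13*, *Dnajb3*, *Hspb6*, *Gnat1*, *Nrl*, *Sag*, *Sil1*, *Vim*, *Flt1*, *Rpe65*, *Des*, *S100a8*, *Xpnpep3*, *H2afz*, *Ugt1a8*, members under the limit and genes near *Hspd1* were named after their values were seen, and the 1.5-fold limit and the limits on abundance were also chosen then. The values of some listed genes are not reported here. Depth was read from the lowest values at each locus length. RefSeq promoters (GRCr8) were matched by symbol and chromosome. Alternatives were a pseudocount of 0.1, 3 other scalings, a minimum FPKM of 5 or none, members with a locus of their own and, chosen after the values were seen, lists limited to an FPKM of at least 1 in CTRL and counts by the ratio of FPKM itself. The 2-fold call and the TPM rescaling were tested on simulated data, and the other steps, such as the depth estimate and the promoter search, were not. Python 3.11.15, numpy 2.4.6, pandas 2.3.3 and matplotlib 3.10.9 were used.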

Additional observations from a re-analysis of the deposited data

How the results depend on the processing

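Of 105 recomputed counts and medians, 79 stayed within 1.5 times or 0.1 log2 of the reported value and 26 moved further; the causes were not tested beyond the scale shift itself. No library could be dropped, because a condition holds just 1, and no paired analysis was possible because each group has a single sample.

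On the TPM scale, which moves the median of genes with an FPKM of at least 1 in both libraries by 0.58 and scarce genes by less than abundant ones, 25 members were at least 2-fold higher (38.5%, against 20.7% of all genes) and the members' median was 0.86. Family medians there were 1.10 for Hspa, 1.51 for Hsph, 1.26 for Hsp90, 0.90 for Hspb, 1.41 for Hspd, 0.92 for Dnaja, 0.74 for Dnajb, 0.74 for Dnajc and 0.83 for Bag. Role group medians were 1.12 for HSF1 targets, 0.90 for the ER, 1.19 for mitochondria, 0.51 for vesicle traffic and 0.86 for the nucleus and ribosome. Without small RNAs in the sum, medians were 0.36 for Hspa, 0.51 for Hsp90, 0.67 for Hspd and 0.18 for Dnaja. With a pseudocount of 0.1 the median was 0.65 for Bag and 0.67 for HSF1 targets, and 3 members, *Bag2* among them, were at least 2-fold higher. With a minimum FPKM of 5 it was 0.34 for Dnajb and 0.21 for Bag, and with no minimum -0.31 for vesicle traffic. Among the 45 compared members with a locus of their own, an alternative chosen after seeing the data, 1 was at least 2-fold higher. Centring on the median gene moved none of these results.

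The direction of every family median was the same under the pseudocount, scaling and minimum settings, where vesicle traffic alone among the role groups changed side, on the TPM scale; neither was recomputed for members with a locus of their own. With 1 library per condition, a difference between animals, dissections or library preparations cannot be told apart from the effect of ischemia. Values near an FPKM of 1 rest on few reads.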

Other observations

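The entry that follows *Hspd1* on chromosome 9 stood out, although it is not a member and was chosen after its values were seen. Listed as AABR07067760.1 (rn6, chr9:61692154-61694599), it had an FPKM of 237 in CTRL against 651 in IR12, a 2.75-fold difference (log2 ratio 1.46) beside 124 and 212 for *Hspd1*. It starts 1197 bases after the end of *Hspd1*, and *Mob4* follows it. In the RefSeq annotation of GRCr8 the gene between *Hspd1* and *Mob4* is *Hspe1*, which encodes the HSP10 lid of the HSP60 chaperonin. Whether the listed entry is this gene was not tested, since no rn6 annotation was used here.

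The genes around the pair had smaller log2 ratios. *Coq10b*, a coenzyme Q chaperone before *Hspd1*, had an FPKM of 29.9 in CTRL against 40.0 in IR12 (0.41). *Sf3b1*, a splicing factor, had 189 and 225 (0.25), and *Mob4* had 54.9 and 44.0 (-0.31).

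*Dnajb3*, a J-domain gene with 2.72 in CTRL against 2.997 in IR12 (0.10), shares its listed locus with *Ugt1a8*, a glucuronosyltransferase, which had 1.24 and 7.37 (1.90). Whether the counting used strand is not given in the sources used here, so reads of these overlapping genes cannot be told apart.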
